A study of Homo sapiens with 2 samples.

Results

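This account describes the FLAG peaks called around 8 genes: AKT1S1, RICTOR, SESN1, SESN2, SESN3, TSC1 and PIK3IP1, which restrain or form part of PI3K and mTOR signalling, and TBC1D17, the neighbour of AKT1S1. The members are the called peaks whose summit, the position of highest signal, lies in one of 7 windows of hg19 drawn around these genes, with AKT1S1 and TBC1D17 sharing one. The rule found 7 peaks among the 9717 of the list, in 5 of the 7 windows. The windows were chosen on the deposited peak calls and their folds, so the presence and strength of these peaks are given as a description and not tested. The deposited list names no gene, and a peak inside a window does not show which gene it acts on. Expression was not measured here.

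The libraries came from U87MG, a human glioblastoma cell line, and the series mapped where the transcription factor FOXO3 binds by CETCh-seq, in which an epitope tag is added to the endogenous factor by genome editing. There were 2 libraries of 1 sample each, a FLAG immunoprecipitation (FLAG ChIP) and input chromatin (Input). The labels give the genotype of both as WT and the treatment of both as LY294002, an inhibitor of phosphoinositide 3-kinase (PI3K) that also inhibits mTOR. No untreated group was analysed here, and the sources used here give neither the dose or duration of LY294002 nor whether the tagged cells were a single clone. With 1 ChIP library there was no replicate check, and the intervals below cover counting error only. From the peak values, the control held 1.07 tags for each ChIP tag, and no peak was called on fewer than 13 ChIP tags.

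mTOR is a kinase that works in a growth-promoting complex, mTORC1, and in a second complex, mTORC2, which phosphorylates AKT. Active PI3K and AKT release the brakes on mTORC1 and keep FOXO factors out of the nucleus, so the same pathway sits upstream of both mTOR and FOXO3. The genes described here act at several levels of it. PIK3IP1 is a membrane protein that inhibits PI3K, TSC1 stabilises the complex that switches off the mTORC1 activator RHEB, AKT1S1 (PRAS40) is an AKT substrate that inhibits mTORC1, and sestrins hold mTORC1 back under stress and amino acid shortage. RICTOR is the defining subunit of mTORC2, and TBC1D17 is a GTPase-activating protein for Rab proteins.

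Reference promoter sequences are shown for 4 of the genes because they span the range of base composition among the members with a peak and include one without. They come from RefSeq on GRCh38.p14, while the peaks are on hg19, so no peak was placed on these sequences. The table held 9 start sites for 6 of the 8 members, with no entry for AKT1S1 and TBC1D17. Each line gives the 250 bases before the first listed start, 5′ to 3′ on the strand of the gene, with CpG dinucleotides in capitals.
PIK3IP1, chr22:31292535-31292784 (minus strand): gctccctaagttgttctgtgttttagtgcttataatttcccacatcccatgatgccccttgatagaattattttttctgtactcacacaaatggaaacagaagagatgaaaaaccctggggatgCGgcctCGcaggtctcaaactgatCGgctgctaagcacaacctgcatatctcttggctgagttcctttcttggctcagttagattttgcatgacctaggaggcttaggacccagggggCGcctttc
TSC1, chr9:132944617-132944866 (minus strand): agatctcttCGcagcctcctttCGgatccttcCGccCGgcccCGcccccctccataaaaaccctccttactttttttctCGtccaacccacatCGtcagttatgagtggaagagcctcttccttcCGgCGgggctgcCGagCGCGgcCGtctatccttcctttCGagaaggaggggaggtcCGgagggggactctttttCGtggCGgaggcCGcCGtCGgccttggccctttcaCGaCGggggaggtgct
RICTOR, chr5:39074400-39074649 (minus strand): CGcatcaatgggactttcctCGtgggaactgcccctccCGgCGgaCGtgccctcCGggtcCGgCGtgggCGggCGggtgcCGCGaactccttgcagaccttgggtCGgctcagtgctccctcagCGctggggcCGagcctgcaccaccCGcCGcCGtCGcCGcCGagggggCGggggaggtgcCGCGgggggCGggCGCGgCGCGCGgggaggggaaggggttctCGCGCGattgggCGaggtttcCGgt
SESN3, chr11:95232476-95232725 (minus strand): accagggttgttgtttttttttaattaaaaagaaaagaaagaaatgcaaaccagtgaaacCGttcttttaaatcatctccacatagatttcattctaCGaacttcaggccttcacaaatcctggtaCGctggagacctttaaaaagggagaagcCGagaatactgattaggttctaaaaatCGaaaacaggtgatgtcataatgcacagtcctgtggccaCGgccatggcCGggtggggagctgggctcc

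The RICTOR promoter was the richest in CpG of those shown. It held 35 CpG in these 250 bases, more than 94.2% of the 35116 promoters in the table, and 76.0% of its bases were G or C. TSC1 held 22 CpG at 62.0% GC. PIK3IP1 held 4 CpG at 46.8% GC, below the promoter medians of 11 CpG and 58.0% GC. SESN3, which had no called peak, held 7 CpG at 42.8% GC, and SESN2, also without a peak, held 19 CpG at 65.6% GC. Members with and without a called peak therefore overlapped in both measures.

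Forkhead factors such as FOXO3 recognise an AT-rich core, for which the letters GTAAACA were searched, with the variant ATAAACA and the longer form GTAAACAA, which contains the first, on both strands of the 300 bases from 250 before to 50 after each start. Of the 9 member promoters, 1 held a match, that of the downstream start of PIK3IP1, which lies 46 bp from the other. The match is shown with its flanks and the motif in capitals, as TGTTTAC on the strand of the gene, which is GTAAACA on the other strand.
PIK3IP1 site, chr22:31292455-31292483 (GRCh38.p14, minus strand): taaagagaggcTGTTTACcagaacagcat
Its first base is base 17 of the transcript, counting the start as 1. GTAAACA was present in 3.42% of the 35116 promoters, ATAAACA in 4.24%, GTAAACAA in 0.954% and at least 1 of them in 7.43%. The other 8 member promoters held none of these letters in this window.

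Deposited fold is the ratio of ChIP pileup to background that the caller wrote. By this measure the 7 peaks differed widely, and the peak in the shared window of AKT1S1 and TBC1D17 stood highest. It was followed by both PIK3IP1 peaks, then TSC1, SESN1 and RICTOR. This order leaves out the control's counting error, with which the intervals of most pairs of peaks overlapped. By ChIP tags alone, RICTOR (38 tags) came before the SESN1 peaks (33 and 19). Folds of 5 or more were seen in 5 of the 7 peaks, against 22.1% of the whole list. Folds of 10 or more were seen in 3 of the 7, against 2.26% of the list. A −log10 q of 10 or more was reached by 5 of the 7, against 25.5% of the list. Nothing is read from these counts, since the genes were picked for their peaks. The median fold of the 7 was 7.40, and that of the whole list was 3.88 with quartiles of 3.36 and 4.798.

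**Figure D1:**
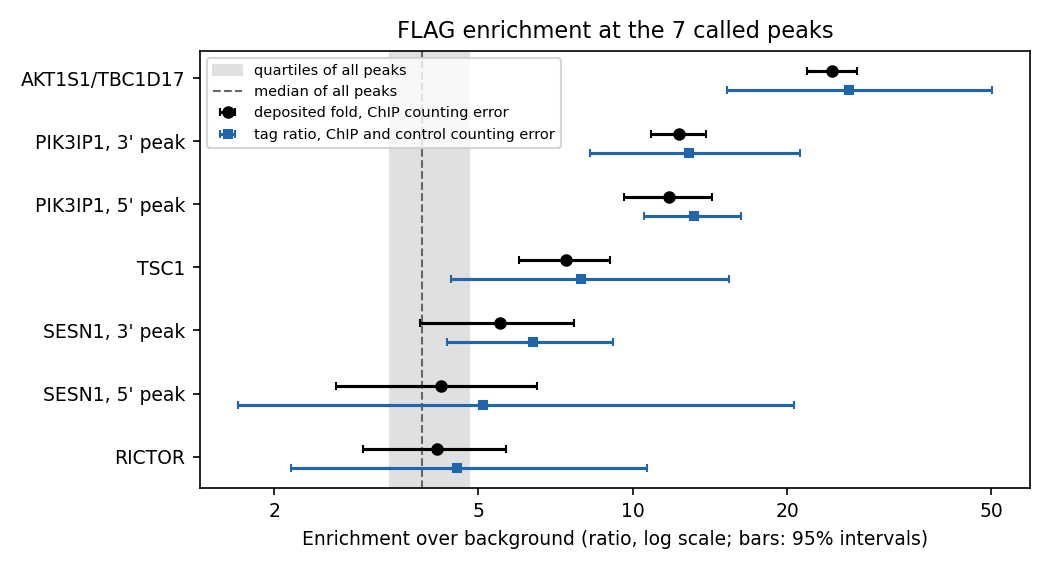
Enrichment of the 7 peaks on a log axis. Black circles are the deposited folds with 95% Poisson intervals of the ChIP pileup, and blue squares are ratios of ChIP to scaled control tags with exact 95% intervals that include the control's counting error; the grey band and dashed line are the quartiles and median (3.88) of all peaks. The AKT1S1/TBC1D17 peak stands at 24.5, while the RICTOR peak at 4.16 and the SESN1 5′ peak at 4.23 lie inside the quartile band. The blue intervals are the wider in all 7 peaks. For the PIK3IP1 5′ and SESN1 3′ peaks the blue intervals take a control window of 10 kb, which was not settled.

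AKT1S1 encodes a direct brake on mTORC1, and its start faces that of TBC1D17, per the rule that set the window. One peak was called in their shared window (chr19:50362000-50402000), from 50380286 to 50381080, with its summit at 50380711. The rule places both starts near 50381000, so the summit lay 289 bp below that position. The peak held 320 ChIP tags at the summit over a background of 12.1 tags, a fold of 24.5 with a 95% Poisson interval of 21.9 to 27.3. It ranked 2 of 9717 by fold and 1 of 121 on chromosome 19. By the number of ChIP tags alone it ranked 13. At 795 bp it was wider than 99.5% of the list, and the summit lay near its middle, 53.6% of the way from its lower end. Neither start was placed more closely than near 50381000, so the peak was not assigned to one of the 2 genes. Within 1 Mb on either side of the centre of the window 9 summits were called in all, and none of the others had a higher fold.

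PIK3IP1, which acts at the top of the pathway on PI3K itself, was the only one of these genes with more than 1 strong peak. Its window (chr22:31667000-31699000) held summits at 31686776 and 31688477, 1701 bp apart. The gene runs on the minus strand, so the higher coordinate is the 5′ side. The 3′ peak, from 31686416 to 31687100, held 252 tags over a background of 19.6, a fold of 12.3 (10.8 to 13.9). The 5′ peak, from 31688115 to 31688676, held 101 tags over 7.68, a fold of 11.8 (9.59 to 14.3). Thus both peaks had folds within each other's intervals, while the 3′ peak had 2.50 times the ChIP tags and 2.55 times the background. They ranked 97 and 118 by fold in the list and 3 and 5 of 92 on chromosome 22. By −log10 q, which grows with tag number at equal fold, they ranked 14 and 116.

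The called intervals of the PIK3IP1 pair were separated by 1014 bp. Of 9647 pairs of neighbouring summits on chromosomes 1 to 22 and X, 463 lay within 2000 bp of each other. In 1 of these 463 pairs both folds were 10 or more, and this was the PIK3IP1 pair. The distance and the fold used for this count were chosen with the peaks known, so it is a description. Within 1 Mb on either side of the centre of this window 11 summits were called, and 1 of them, at a fold of 18.1, was above both PIK3IP1 peaks. The background of the 3′ peak was higher than that of 99.5% of the list, the highest of the 7.

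**Figure D2:**
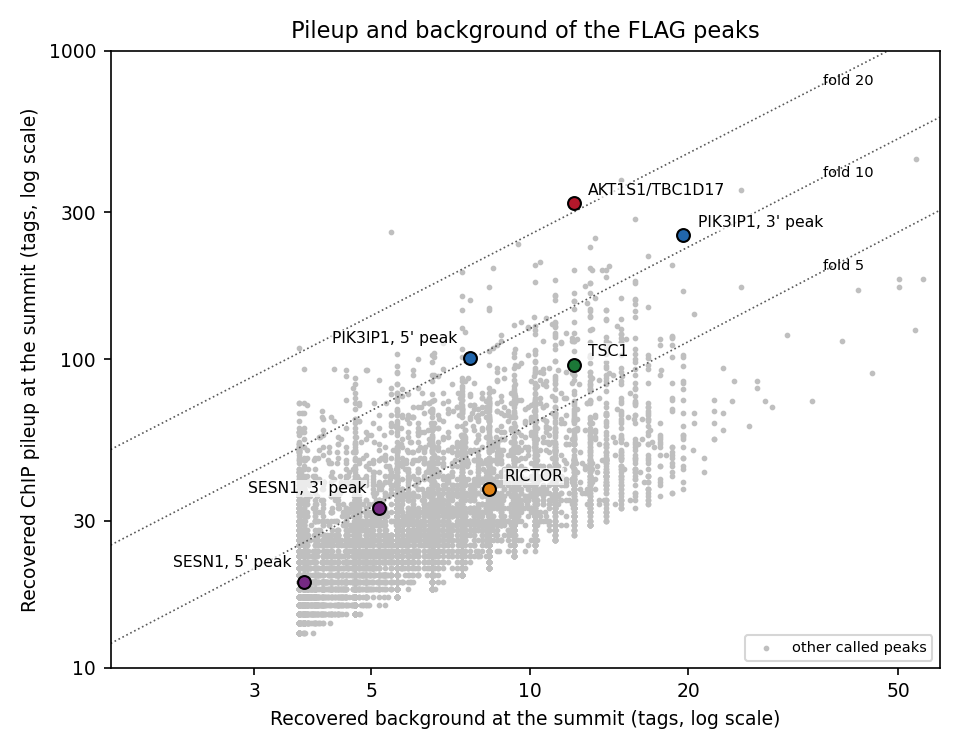
Recovered ChIP pileup against recovered background, both in tags on log axes, for the 7 peaks (coloured) and the other called peaks (grey), with dotted lines of equal fold; 10 peaks beyond 60 background tags or 1000 ChIP tags are not drawn. Both PIK3IP1 peaks lie a little above the line of fold 10, at 252 and 101 tags, and the AKT1S1/TBC1D17 and TSC1 peaks share a background of 12.1 tags but differ in pileup, 320 against 96.

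TSC1 encodes hamartin, the scaffold of the tuberous sclerosis complex. Its window (chr9:135756000-135830000) held 1 peak, from 135819822 to 135820653 with the summit at 135820423. The peak had 96 tags over a background of 12.1, a fold of 7.40 (6.01 to 9.02), and ranked 649 of 9717. At 832 bp it was the widest of the 7 and wider than 99.7% of the list. Its summit was off centre, with 601 bp of the interval below it and 230 bp above. The recovered background matched that of the AKT1S1 and TBC1D17 peak, so the 2 peaks differ in fold through their pileups. Only 3 summits were called within 1 Mb of the centre of the window, and 1 of them, 179 kb above the upper edge, had a higher fold of 12.7 (10.9 to 14.7).

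The sestrins parted, with peaks in the SESN1 window and none in those of SESN2 and SESN3. SESN1 had 2 peaks in its window (chr6:109297000-109427000), 71.5 kb apart. The 3′ peak, from 109323270 to 109323805, held 33 tags over 5.17, a fold of 5.51 (3.85 to 7.68), and ranked 1567. The 5′ peak, from 109394715 to 109395078, held 19 tags over 3.72, a fold of 4.23 (2.63 to 6.49), and ranked 3763. The SESN1 intervals overlapped, so counting error alone could set which is higher. The 5′ peak had the lowest pileup of the 7 and fewer tags than the list median of 25. Of the 5 summits called within 1 Mb of the centre of the SESN1 window, 2 had a higher fold than its best peak, up to 9.08. RefSeq lists 3 starts for SESN1 spread over 85.9 kb (GRCh38), and which of them lies nearest to either summit was not analysed here.

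No peak was called in the 43.0 kb window of SESN2, whose protein senses leucine (chr1:28576000-28619000), or in the 88.0 kb window of SESN3 (chr11:94888000-94976000). The nearest summit to the SESN2 window lay 2.14 kb below its lower edge, which is the 5′ side, at a fold of 2.77 (1.83 to 4.04), with 25 tags on a background of 8.38. The nearest to the SESN3 window lay 177 kb above its upper edge, also the 5′ side, with a fold of 4.08 (2.51 to 6.33). Absence from the list does not show absence of binding. On the genome-wide background of 3.65 tags the smallest called peak had 13 tags and a fold of 3.01, and on the median background of 5.59 tags it had 17 tags and a fold of 2.73. Weaker enrichment in these windows was not detectable at this depth.

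RICTOR, the mTORC2 subunit, had the lowest deposited fold of the 7, although its interval overlapped those of both SESN1 peaks. In its window of 157 kb (chr5:38928000-39085000), 1 peak was called, from 39073254 to 39073582 with the summit at 39073461. It held 38 tags over 8.38, a fold of 4.16 (2.97 to 5.67), and its −log10 q of 9.93 fell just under 10. It ranked 3942 of 9717 by fold, with 59.3% of the list below it, and 2085 by ChIP tags. The 5′ peak of SESN1 was lower than RICTOR in tags (19) and in −log10 q (4.94). At 329 bp the RICTOR peak was also the narrowest of the 7. The next summit above the window, 16.1 kb beyond its 5′ edge, reached 73 tags on a background of 8.24. Its fold of 8.01 (6.30 to 10.0) was above that of the RICTOR peak beyond the counting error of the ChIP alone. With the control's counting error included, the interval of the RICTOR peak widened to 2.16 to 10.7. The 2 summits were not compared on that measure. Of the 16 summits within 1 Mb of the centre of the window, 8 had a higher fold than the RICTOR peak.

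**Figure D3:**
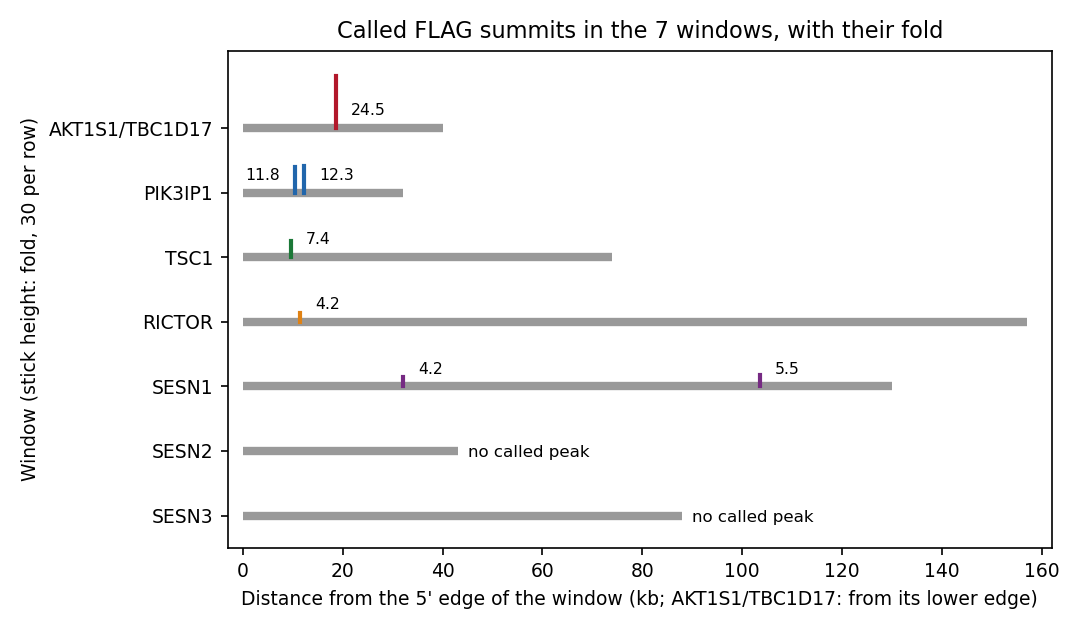
Position of the called summits in the 7 windows, in kb from the 5′ edge of each (AKT1S1/TBC1D17 from its lower edge), with stick height and number giving the deposited fold. The TSC1, PIK3IP1 5′ and RICTOR summits lie 9.58, 10.5 and 11.5 kb from the 5′ edge, the SESN1 summits lie deeper, and the SESN2 and SESN3 windows are empty.

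In 3 of the 4 single-gene windows with a peak, a summit lay at a similar distance from the 5′ edge. The distance was 9.58 kb for TSC1, 10.5 and 12.2 kb for the PIK3IP1 peaks and 11.5 kb for RICTOR, against 32.1 and 103.6 kb for the SESN1 peaks. For the 6 single-gene windows, the window was 19.5 to 21.1 kb longer than the gene as RefSeq lists it on GRCh38. How that excess is split between the 2 ends of a gene was not read from coordinates, since no annotation of hg19 was used here. The distances are therefore to edges that the rule drew, and no shared position relative to a start was read from them. No member lay close to an edge of its window, the nearest being TSC1 at 9.58 kb. Outside the windows, the nearest summit was the one 2.14 kb below SESN2, followed by the one 16.1 kb above RICTOR. The 7 windows covered 564 kb and held 12.4 summits per Mb, against 3.33 per Mb over the span of chromosomes 1 to 22 and X. Nothing is read from this contrast, since the windows were chosen with the peaks known.

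All 7 intervals were wider than the list median of 246 bp, and 6 were wider than its upper quartile of 344 bp. The exception was RICTOR. Width and tag number did not follow one order among the members: TSC1 had 96 tags in 832 bp, and the 3′ peak of PIK3IP1 had 252 tags in 685 bp. In TSC1 the long arm of the interval lay below the summit, and in the 3′ peak of SESN1 it lay above, with 149 bp below and 386 bp above. The AKT1S1 and TBC1D17 peak and the 3′ peak of PIK3IP1 were nearly symmetric.

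**Figure D4:**
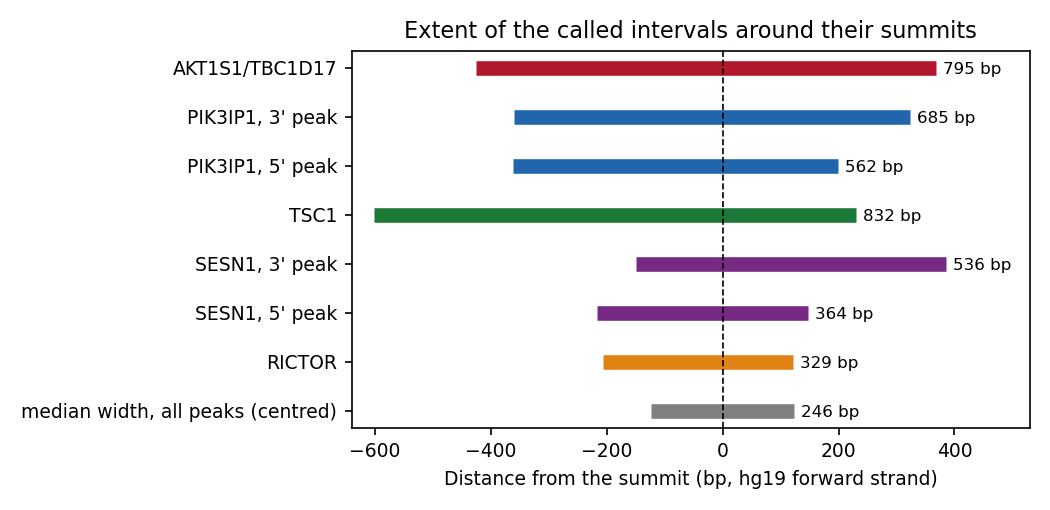
Extent of each called interval around its summit, in bp on the forward strand of hg19, with its width; the grey bar is the median width of all peaks, drawn centred. Widths run from 329 bp at RICTOR to 832 bp at TSC1, against 246 bp for the median peak.

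The order of the peaks was less firm once the control library's own counting error entered. None of the 7 peaks sat at the genome-wide background. In 5 of them the recovered background was a whole multiple of 0.931 tags, taken as the value of 1 control tag within the length to which tags were extended. That length was inferred to be 150 bp, from the smallest peak width and the background steps, since the caller's parameters are not in the labels, and the control tags counted over 10 kb rest on it. This gives 13 control tags at AKT1S1 and TBC1D17, 21 at the 3′ peak of PIK3IP1, 13 at TSC1, 9 at RICTOR and 4 at the 5′ peak of SESN1. The backgrounds of the 3′ peak of PIK3IP1 and of RICTOR would also fit a longer window. Their control tags could then be more and their intervals narrower than given here. In the other 2 it was matched to a window of 10 kb, the only longer one tried. That gave 550 control tags at the 5′ peak of PIK3IP1 and 370 at the 3′ peak of SESN1. Both counts are multiples of 10, so a window of 1 kb would match the same backgrounds with 10 times fewer tags and wider intervals. The window length was therefore not settled. The ratio of ChIP to scaled control tags was then 26.4 (95% exact interval 15.2 to 50.2) at AKT1S1 and TBC1D17 and 12.9 (8.25 to 21.2) at the 3′ peak of PIK3IP1. It was 13.1 (10.5 to 16.3) at the 5′ peak of PIK3IP1, 7.93 (4.43 to 15.4) at TSC1 and 4.54 (2.16 to 10.7) at RICTOR. For SESN1 it was 6.39 (4.33 to 9.13) at the 3′ peak and 5.10 (1.70 to 20.6) at the 5′ peak.

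Among the 21 pairs that the 7 peaks form, 15 had separate intervals when only the ChIP tags were counted as uncertain, and 3 when the control tags were too. These 3 were AKT1S1 and TBC1D17 against the 3′ peak of SESN1, AKT1S1 and TBC1D17 against RICTOR, and the 5′ peak of PIK3IP1 against the 3′ peak of SESN1. The last of these pairs rests on the 10 kb window taken for both of its backgrounds. Windows between 150 bp and 10 kb were not tried, so the count of separate pairs depends on the control windows taken. The interval of the AKT1S1 and TBC1D17 peak overlapped those of both PIK3IP1 peaks once the control was counted, although its deposited fold of 24.5 stood apart from their 12.3 and 11.8. Overlap of intervals is no test of a difference, and the differences between peaks were not tested. The intervals treat sequenced tags as independent molecules and leave out the caller's choice of the highest of several background windows.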

How the data were processed

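The values come from the peak list of the FLAG ChIP. Per the submitters' processing notes, Trimmomatic, HISAT2 and MACS2 were used with hg19; versions, roles, parameters, read filters, the peak threshold and the control library: not given in the sources used here. Deposited values are the authors' fold enrichment (a ratio), −log10 p-value, −log10 q-value and score, which is 10 times the −log10 q without decimals. Starts count from 1.

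The fold is pileup plus 1 over background plus 1, and p the upper Poisson tail, in MACS2. Both were solved together for a whole-number pileup and a background, with a largest error of 5.0e-04 in −log10 p, and the step was tested on simulated data. Fold intervals are exact 95% Poisson intervals of the pileup. Intervals with the control come from exact binomial shares (Clopper-Pearson) and were added after seeing the data. Background steps were matched within 2e-04 tags, to windows of 150 bp and 10 kb only. Calculations used Python 3.11.15, scipy 1.17.1 and pandas 2.3.3.

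Every called peak in the 7 windows was named. The members and windows were chosen with earlier results of these data known. Other mTOR pathway genes were not analysed here, since no hg19 annotation was used. Alternatives were stricter thresholds, other window edges, merging, other folds and other rankings.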

Additional observations from a re-analysis of the deposited data

How the results depend on the processing

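Of 37 alternative settings over 13 results, 22 stayed within counting error or, for counts, within 1.5 times. The number of member peaks ran from 5 (−log10 q of 10 or more, or fold of 5 or more) to 8 (windows widened by 10 kb, which adds the peak below SESN2). The median fold of the members was 9.58 at a −log10 q of 5 or more and 11.8 at 10 or more, since weak members drop out. Over the genome-wide background, the fold was 69.0 at AKT1S1 and TBC1D17, 54.4 at PIK3IP1, 20.9 at TSC1, 8.38 at RICTOR and 7.31 at SESN1, since a lower background divides the same pileup. By −log10 q, PIK3IP1 ranked 14 and TSC1 244. By pileup or by fold over the genome-wide background, which give the same order, AKT1S1 and TBC1D17 ranked 13, PIK3IP1 17, TSC1 186, RICTOR 2085 and SESN1 2835, which puts RICTOR above SESN1, whereas by fold they ranked 3942 and 1567. With the control's counting error, chosen after seeing the data, 3 peak pairs in place of 15 had separate intervals. That count depends on the control windows taken, which were not settled. No paired analysis was possible because the series has 1 ChIP library and no replicate numbers.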
